A study of Mus musculus with 686 samples.

Results

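The 100 most abundant small nucleolar RNA (snoRNA) rows of 12 mouse tissues outside the brain are described here, across tissues, spaceflight and age. Counts of each library were scaled to 1e+06 snoRNA counts (reads per 1e+06 snoRNA reads, RPM), and a mean was taken per tissue over the HGC and VGC libraries of LAR. The 50 rows with the highest brain mean relative to any other tissue were dropped, and the 100 remaining rows with the highest mean of the 12 other tissue means, of 1545 rows in all, are the members. These 100 rows hold 88 distinct snoRNAs, because rows of identical or near-identical sequence were each given the same reads. The members were chosen by their levels in the LAR ground controls, whose tissue levels are therefore given as a description with no test. Comparisons of arms and ages in LAR also use these libraries, so they are not independent of that choice. Just inside the limit lay Snord59a, Gm24148 and Gm25878, with means of 2383, 2307 and 2140 RPM. Just outside it lay Gm25970, Gm23344 and Snord92, with 2090, 2020 and 1973.

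The study sequenced small RNA from 13 tissues of female BALB/cAnNTac mice, aged 3 or 8 months, as 686 libraries. Spaceflight mice (FL) lived on the International Space Station, habitat ground control mice (HGC) were kept on Earth in the flight hardware under matched conditions, and vivarium ground control mice (VGC) lived in standard cages. In the live animal return extraction (LAR) the mice spent 39.5 days on the station and were dissected fresh 2 to 4 days after splashdown, or at matched times on Earth. In the terminal extraction (TERM) other mice were killed 22 to 24 days after launch, and all tissues but spleen were dissected later from carcasses that had been frozen whole and thawed, while spleen was removed at once into RNAlater. LAR held 114 FL, 113 HGC and 121 VGC libraries and TERM held 115, 114 and 109, usually 5 mice per age and arm in a tissue. Heart and spleen of LAR held 6 FL and 6 HGC libraries each, and pancreas of TERM held 4 FL, 5 HGC and 2 VGC libraries, all at 3 months. Brain of LAR, which sets the brain levels of the rule, held 4 libraries per arm, all at 3 months. The fat depots were brown (BAT), gonadal (GAT), mesenteric (MAT) and subcutaneous (SCAT) adipose tissue. Each library is one tissue of one mouse, so replicates are animals.

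Box C/D snoRNAs are short nucleolar RNAs that carry a C box near the 5′ end and a D box near the 3′ end. With fibrillarin, NOP56, NOP58 and SNU13 they guide 2′-O-methylation of ribosomal RNA at the base paired to the guide, and a few instead help cut and fold the ribosomal RNA precursor. Most mammalian snoRNAs are processed from introns of host genes, many of which encode ribosomal proteins or are noncoding genes such as Gas5, Snhg1 and Zfas1. H/ACA snoRNAs, the other large class, guide pseudouridylation.

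The sequences below are those of snoRNAs on which the levels and comparisons turn. They were read from GENCODE M21 transcripts on GRCm38, and capitals mark a C box (NTGATGN, searched in the first of 3 equal parts of the RNA) and a D box (CTGA, searched in the last 20 bases). The first pair ranked highest per length, and the next lies in Snhg1 and had its highest tissue mean in pancreas.
Snord42a: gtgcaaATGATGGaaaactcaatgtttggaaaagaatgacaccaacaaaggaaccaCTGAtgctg
Snord80: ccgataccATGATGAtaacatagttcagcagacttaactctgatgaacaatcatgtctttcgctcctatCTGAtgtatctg
Gm22680: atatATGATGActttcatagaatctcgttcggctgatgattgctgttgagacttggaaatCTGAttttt
The next 4 carry tissue results: U8 and the Snhg18 snoRNA Snord123, high and low in liver, and a pair from Zfas1 that was called higher in thymus.
Snord118: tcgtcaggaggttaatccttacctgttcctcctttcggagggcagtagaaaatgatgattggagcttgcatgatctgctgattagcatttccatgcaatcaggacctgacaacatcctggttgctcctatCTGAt
Snord123: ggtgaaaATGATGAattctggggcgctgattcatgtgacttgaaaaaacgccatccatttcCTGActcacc
Snord12: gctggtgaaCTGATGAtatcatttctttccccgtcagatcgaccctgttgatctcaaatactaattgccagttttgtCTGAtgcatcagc
Gm25878: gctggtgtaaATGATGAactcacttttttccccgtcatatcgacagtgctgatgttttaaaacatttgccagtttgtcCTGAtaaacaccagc
The last pair was called with age in 2 fat depots, and Snord45b had the greatest FL to HGC fold change in pancreas of TERM.
Snord22: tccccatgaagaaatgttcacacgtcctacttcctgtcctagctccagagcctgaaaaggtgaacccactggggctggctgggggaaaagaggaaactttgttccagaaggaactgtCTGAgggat
Snord88a: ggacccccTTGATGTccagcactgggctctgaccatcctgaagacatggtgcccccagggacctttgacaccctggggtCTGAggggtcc
Snord45b: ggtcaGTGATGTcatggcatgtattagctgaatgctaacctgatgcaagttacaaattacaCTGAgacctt
They lie at chr11:78181299-78181363 (minus strand, Snord42a), chr1:161037601-161037681 (plus, Snord80), chr19:8725341-8725409 (plus, Gm22680), chr11:69073427-69073561 (plus, Snord118), chr15:32241853-32241923 (minus, Snord123), chr2:167065276-167065365 (plus, Snord12) and chr2:167063473-167063565 (plus, Gm25878). The last 3 lie at chr19:8725866-8725991 (plus, Snord22), chr7:44250135-44250224 (plus, Snord88a) and chr3:153910563-153910633 (minus, Snord45b). Snord118 and Snord22 held no C box by this search, which says only that these letters are not in the window searched.

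The members were box C/D snoRNAs almost throughout. A GENCODE M21 sequence was found for 99 of the 100 members, and 98 of the 99 (99.0%) held the D box, against 35.4% of the 1506 snoRNA rows with a sequence. The C box was present in 81 (81.8%), against 26.9% of all rows. Members were 60 to 216 bases long with a median of 77, against a median of 127 for all rows, and their GC content ranged from 29.6% to 65.1%. By name, 61 members were C/D snoRNAs and 39 carried only a Gm number, and none of the 42 H/ACA rows was a member. Snora81 was the highest H/ACA row, with a mean of 1282 RPM.

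By position, 97 of the members lay on the same strand within one of 56 host genes. Ribosomal protein genes held 23 members in 13 genes, among them Rpl23a and Rpl17 with 3 each. Noncoding hosts held 27 members in 12 genes. Gas5, a noncoding gene whose exons are known mainly for responding to growth arrest, carried 8 distinct members, Snhg1 carried 6 and Zfas1 carried 3. Nop56 and Nop58, which encode core proteins of the box C/D particle, and Rack1, which encodes a protein of the small ribosomal subunit, carried 3 each. U3, the snoRNA needed for the first cuts of the 18S precursor, filled 8 rows in near-identical forms of 216 and 215 bases, counted as 1 distinct snoRNA. All 8 rows lay within Tex14 by position, which does not show that they are transcribed with that gene. Snord118 (U8) and Snord13 (U13) had no host and are known to be transcribed from promoters of their own.

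Per 100 bases of RNA, Snord42a had the highest mean over the 12 tissues, 45972 RPM, followed by Snord80 with 38876 and Gm26109 with 37368. Gm22680, Gm25855, Gm26224 and Gm25894 followed with 36176, 31802, 30887 and 30260. Snord42a and Snord80 are guides for ribosomal RNA, from introns of Rpl23a and Gas5. Without regard to length, Snord80 was first with a mean of 31490 RPM, and Gm26330 (21092) and Snord90 (20077) were also among the 10 highest, but per 100 bases they fell to ranks 14 and 18. The snoRNAs of precursor processing ranked lower per 100 bases: Snord22 (U22) 14299, Snord14d (U14) 14022, Snord118 8431, U3 5091 and Snord13 2600. Small RNA libraries hold fragments and size-selected molecules, so these are levels of sequenced reads, not of intact snoRNA.

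Members took a mean of 88.2% (BAT) to 92.3% (liver) of all snoRNA counts in the 12 tissues of the LAR ground controls, against 18.6% ± 12.5 (SD, n = 8) in brain. All 100 members had their lowest mean in brain, with means there of 144 to 8255 and a 12-tissue mean 2.13 to 20.5 times as high (median 5.21). The rule had removed the brain snoRNAs, so this contrast was partly built in. Libraries held 176992 to 66853759 snoRNA counts (median 7049352), a median of 17.2% of the counts over 7 RNA classes in LAR and 10.3% in TERM outside brain. All levels are shares of snoRNA counts, so that a rise of one snoRNA lowers the others, and fewer cells of a type cannot be told apart from less RNA per cell. By 730 miRNAs, 166 of the 686 libraries lay closer to another tissue than to the one on the label, 46 of the 57 MAT libraries among them, and of the 44 sequencing pools that the study's sample sheet gives for these libraries, 11 held more than 1 in 3 such libraries. The reference of a tissue was the median of the libraries so labelled. In the paper the fat depots cluster together by miRNA, so a mismatch between depots does not show a wrong label. Defining tissue miRNAs were present in the pancreas libraries of TERM (71309 to 151667 RPM of miRNA counts over the ground controls and 79480 to 95890 in FL). The same 100 members were found without the 11 pools and without the mismatched libraries.

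**Figure D1:**
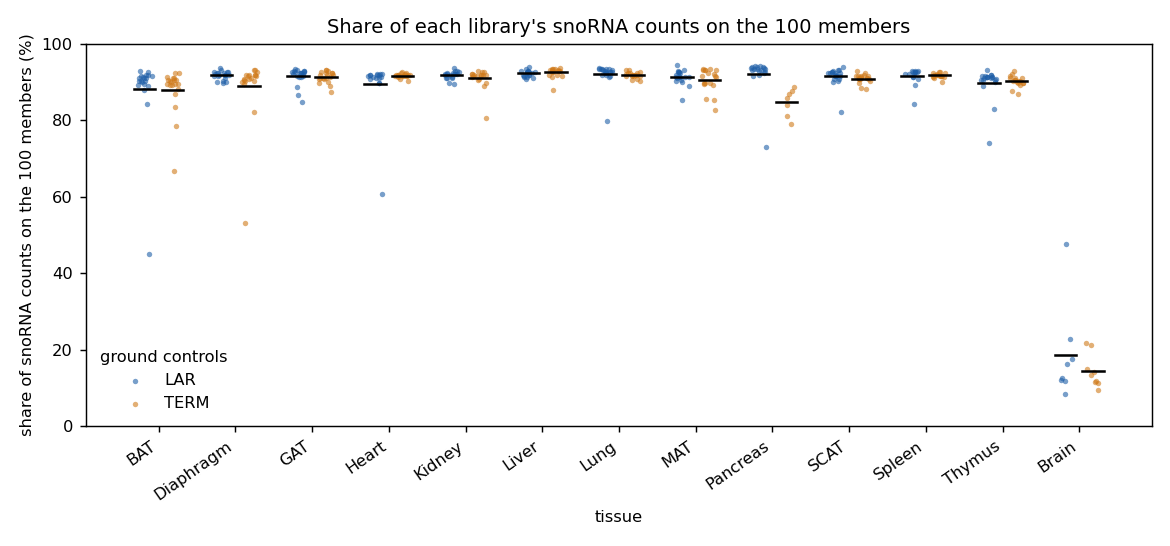
Share of each library's snoRNA counts on the 100 members (y axis, percent) by tissue (x axis) in ground controls of LAR and TERM. Each point is a library and the bars mark means; tissues outside brain lie near 90% and brain lies at 18.6% in LAR and 14.3% in TERM, with single low libraries in several tissues.

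Across the 12 tissues of the LAR ground controls most members were even and a few were not. The ratio of a member's highest to its lowest tissue mean ran from 1.23 to 8.49 with a median of 1.75, and it was below 2 for 63 members and above 3 for 12. The widest ratios were those of Snord123 (8.49), Snord50b and its identical copy Gm26135 (5.38), Snord85 (4.47), Snord45b (4.19) and Snord118 (4.04). Over distinct snoRNAs, pancreas held the highest mean of 19, thymus of 15 and lung of 12, while pancreas held the lowest mean of 18, liver of 14 and diaphragm of 12. Over rows, in which U3 counts 8 times, thymus held the highest mean of 22 and pancreas of 19, and pancreas held the lowest of 19 and heart of 16.

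Liver stood out for U8. Snord118, needed for maturation of 5.8S and 28S ribosomal RNA, had a mean of 27630 ± 13100 RPM (SD, n = 19) in liver, with a lowest, median and highest library of 9552, 26827 and 68565. Its lowest mean was 6834 ± 2362 (n = 16) in heart. Snord13 was also highest in liver, 4516 ± 1570, and lowest in diaphragm, 1963. Gm26109 reached 53156 ± 16315 in liver (13308 to 72374, median 56689) against 13608 ± 7939 in thymus, and Snord45b 6789 ± 2453 against 1622 ± 522 in lung. Snord123 showed the opposite order, with 655 ± 997 in liver (254 to 4723, median 402), which is below its means in spleen (1149) and thymus (1156) by less than the SD of liver. Its highest mean was 5565 ± 1705 (n = 18, 2134 to 9038, median 5731) in pancreas.

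Pancreas was also highest for the Snhg1 snoRNAs Gm22680 and Snord22. Gm22680 averaged 53092 ± 14561 there (21692 to 74590, median 56590) against 13886 ± 3812 in heart, and Snord22 28048 ± 7045 against 11260 ± 2418 in liver. The 6 Snhg1 members together took 15.7% ± 2.40 of snoRNA counts in pancreas and 8.62% in kidney, the lowest. Other guides were low in pancreas: Snord12 averaged 7126 ± 1801 there against 14298 ± 4538 in lung, and Snord50b 2529 ± 734 against 13602 ± 4969 in GAT. Both U14 copies of Hspa8 were highest in heart and lowest in pancreas, Snord14d with 16862 ± 5504 and 6162 ± 1416, and Snord14c with 12651 ± 4411 and 6170 ± 1547. U3 was among the even members, from 8440 in heart to 13220 in thymus, and so was Snord80, from 24445 in MAT to 36867 in heart. The 8 distinct Gas5 members together ranged only from 8.57% in liver to 11.7% in SCAT.

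**Figure D2:**
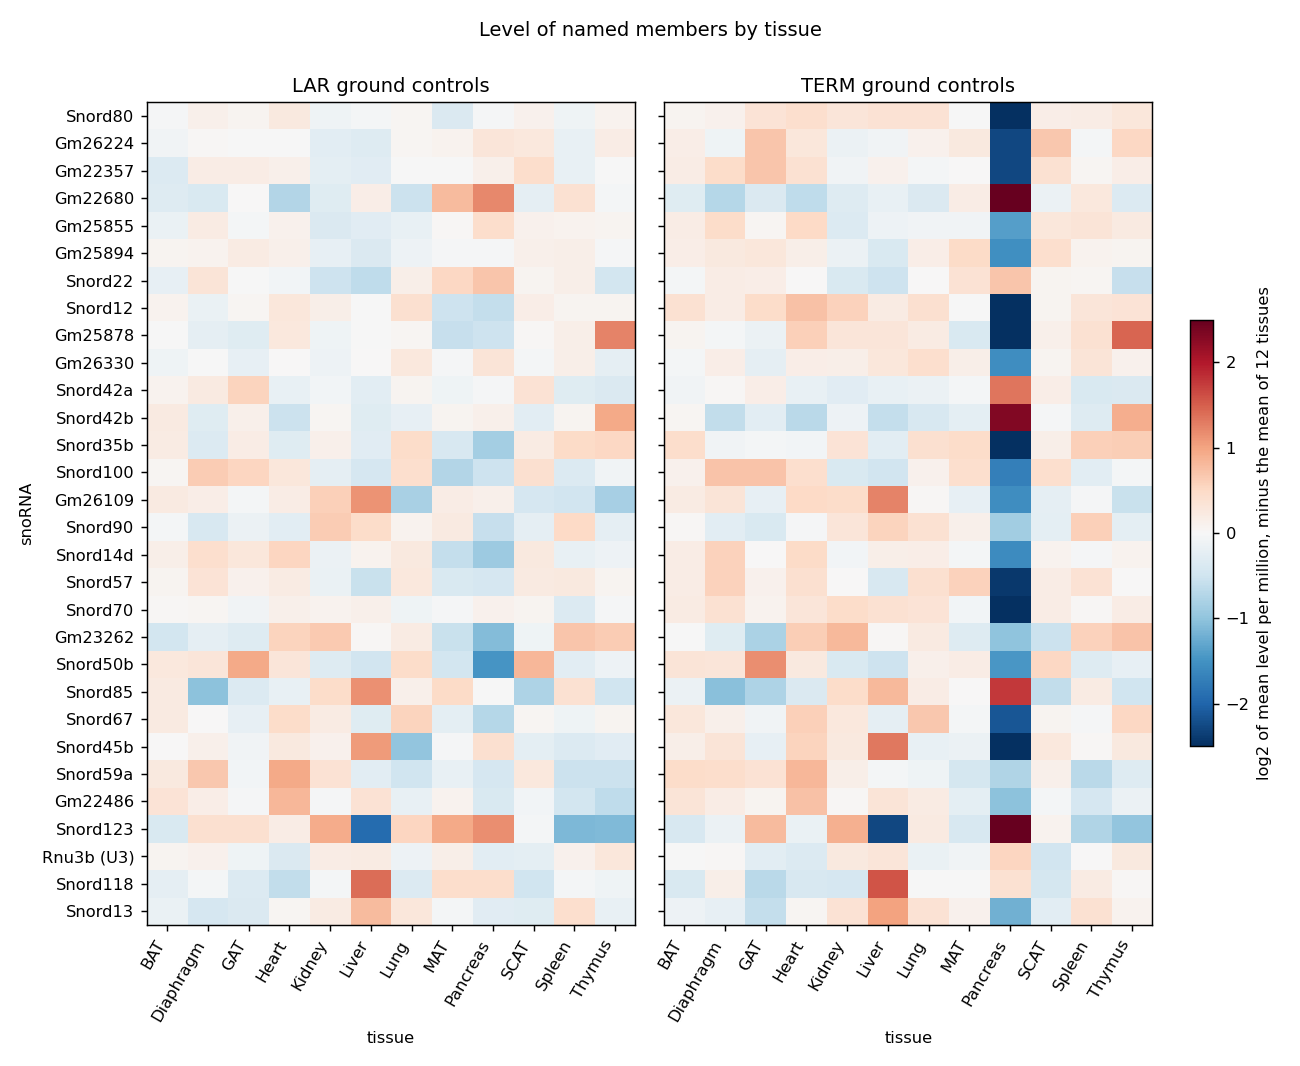
Heat map of named members (rows) by tissue (columns) in ground controls of LAR and TERM. Colour is the log2 of the tissue mean RPM minus the mean over the 12 tissues; Snord118 is red in liver in both extractions, Snord123 blue in liver, Gm25878 red in thymus, and TERM pancreas departs from LAR pancreas for many members.

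Tissue differences were then tested in the TERM ground controls, whose animals had no part in choosing the members. Each tissue was compared with the mean of the other 11 by edgeR's quasi-likelihood test with the mouse as a block and Benjamini-Hochberg adjustment over all rows tested. Of 1200 member tests 580 were called at adjusted p under 0.05, 401 higher and 179 lower, that is 48.3%, against 31.3% of all 12456 row tests. Rows with more counts give smaller errors, and the part of this in the difference was not tested.

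Liver again had the highest U8. Snord118 in TERM liver ran from 4943 to 66149 RPM with a median of 29725 and a mean of 31523 ± 15092 (SD, n = 19), against a mean of 9559 in the 195 libraries of the other tissues. The ranges overlapped, and the log2 difference was 1.92 (SE 0.15, edgeR adjusted p = 2.35e-25), between 1.88 and 2.25 in all 8 alternatives. Snord13 was called higher in liver too, by 1.29. Snord123 was lower in liver by 2.29 on the log2 scale (SE 0.22, edgeR adjusted p = 1.37e-17), with a mean of 537 ± 474 (288 to 2471, median 429) against 3375 elsewhere. It was higher in kidney, 4766 against 2972 (log2 1.16, edgeR adjusted p = 1.24e-08), and lower in thymus, 1306 against 3289 (log2 -1.10, edgeR adjusted p = 1.17e-05).

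The snoRNAs of Zfas1, a noncoding host, were called higher in spleen, thymus, kidney and liver, and 2 of the 3 in heart and in lung. Their share of snoRNA counts was highest in heart (2.13%) and thymus (2.12%). In spleen (1.74%) and liver (1.67%) that share lay below the one in GAT (1.78%), where 1 of the 3 was called. Gm25878 had 4772 ± 1855 RPM (n = 18, 1367 to 7361, median 5257) in thymus against 1883 elsewhere, a log2 difference of 1.67 (SE 0.15, edgeR adjusted p = 3.63e-21; 1.32 to 2.36 over alternatives). All 3 Zfas1 members were called higher in spleen (0.91 to 1.26), thymus (0.50 to 1.67), kidney (0.37 to 0.78) and liver (0.42 to 0.48), tissues in which 670, 249, 214 and 410 of all 1038 rows were called. In spleen, thymus and liver they were positive under every alternative run, but with pancreas left out of the mean 2 of the 3 were called in thymus and 1 in liver, and without the 11 pools 2 in thymus. Among the fat depots, Snord50b, a 28S guide from Snhg5, was highest in GAT. It had 16091 ± 5087 (n = 20, 8035 to 31031, median 15857) against 7403 elsewhere, with a log2 difference of 1.27 (SE 0.10, edgeR adjusted p = 2.75e-25). That difference fell to 0.10 and was not called when counts were scaled to the total of 7 RNA classes.

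Other tissues were led by smaller differences. Snord67, which guides methylation of the spliceosomal U6 RNA, was highest in lung, 7525 ± 2526 against 5174 (log2 1.00, edgeR adjusted p = 2.48e-11). Snord59a led heart with 4162 ± 1615 against 2401 (log2 0.79, edgeR adjusted p = 1.46e-06), while Snord42b was lowest there, 1842 ± 938 against 3150 (log2 -0.86, edgeR adjusted p = 2.32e-06). Snord85 was lower in diaphragm, 1618 ± 1161 against 3617 (log2 -1.20), in GAT by 0.94 and in SCAT by 0.65. Gm26224, a Gas5 snoRNA, was higher in SCAT, 35688 ± 13710 against 24821 (log2 0.73, edgeR adjusted p = 9.12e-07), but -0.15 under the scaling to 7 classes. Snord57 led MAT with 7134 ± 1738 against 5381 (log2 0.69, edgeR adjusted p = 3.88e-06), a depot in which 22 of 29 TERM libraries lay closer to another tissue's miRNA profile. Without such libraries its difference was 0.62 (edgeR adjusted p = 0.0379), and under the scaling to 7 classes 0.28 with no call. The largest fall in BAT was that of Snord118, 8151 ± 2748 against 11855 (log2 -0.74, edgeR adjusted p = 0.000401). The largest fall in MAT was that of Snord123, 1963 ± 1652 against 3236 (log2 -0.58, edgeR adjusted p = 0.0285).

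Spleen, the tissue of TERM that was never frozen in the carcass, had 98 members called higher and none lower (by edgeR, where 64.5% of all rows tested were called in either direction). Shares of snoRNA counts did not follow for every host. The 3 Rpl23a members were called higher in spleen, yet their share was 3.59%, the lowest of the 12 tissues. All 8 Gas5 members were called higher at a share of 9.40%, with 9.00% in kidney and 13.4% in GAT. Fitted differences use TMM factors, which shares do not. Tissue and preservation cannot be told apart in spleen. The largest rise was that of Gm26247, from 2410002F23Rik, with 4069 ± 3337 (n = 17, median 3175) against 2533 elsewhere (log2 1.60, edgeR adjusted p = 9.46e-17). The same snoRNA was higher in diaphragm by 0.80 (edgeR adjusted p = 3.63e-05). With DESeq2 size factors spleen had 54 higher and 3 lower. Directions of whole tissues turned with the scaling elsewhere too: heart had 19 higher and 20 lower, but 49 and 6 with DESeq2 size factors and 57 and 0 with the total of 7 classes, and GAT had 22 and 6, but 14 and 27, and 0 and 94. In the same order diaphragm had 11 and 22, but 35 and 11, and 23 and 3, and MAT had 21 and 2, but 17 and 4, and 0 and 2. The median difference of members within a tissue moved by -0.62 to 0.97 under the first of these scalings and by -2.19 to 1.13 under the second.

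**Figure D3:**
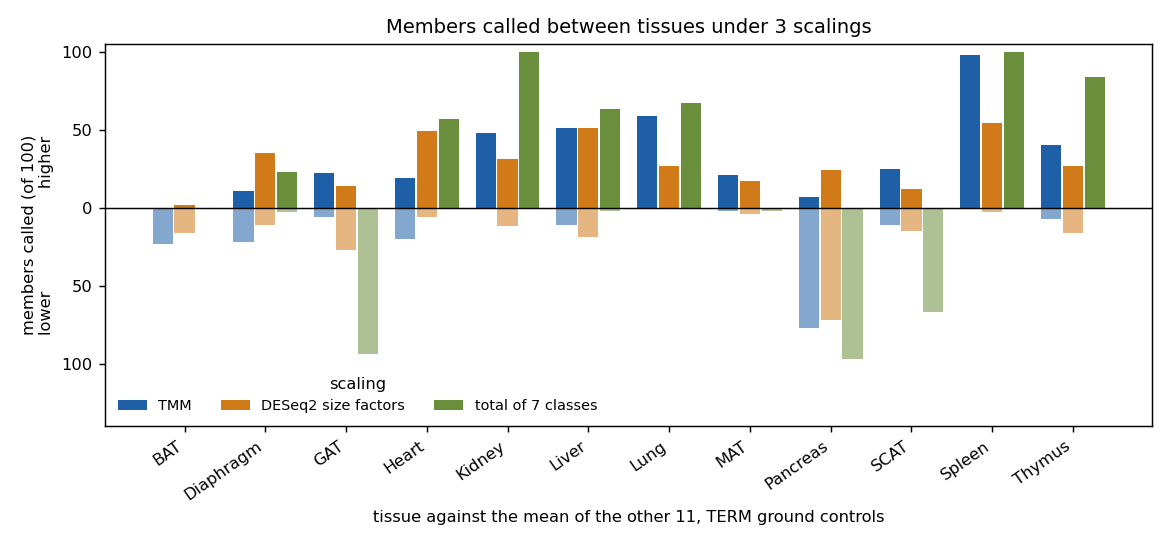
Members called higher (up) or lower (down) in each tissue against the mean of the other 11 in TERM ground controls (y axis, number of 100), under 3 scalings in 3 colours. Spleen (98 higher) and pancreas (77 lower) stand apart under TMM, and GAT, SCAT, MAT, heart and diaphragm change direction with the scaling.

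Pancreas of TERM stood apart from every other tissue. Of the 100 members, 77 were called lower and 7 higher (38.1% of all rows there were called), and with DESeq2 size factors 72 and 24. Snord12 had 181 to 2300 RPM (median 369, mean 688 ± 746, n = 7), below all 207 libraries of the other tissues, whose lowest was 4034 and whose mean was 10995. Its log2 difference was -5.10 (SE 0.36, edgeR adjusted p = 1.89e-29; -7.38 to -4.25 over alternatives). Snord123 ran the other way, from 13651 to 32346 (mean 22683 ± 6419), above all others, whose highest was 7763, with a log2 difference of 2.58 (SE 0.24, edgeR adjusted p = 1.55e-19). All 8 Gas5 members were called lower (-3.93 to -0.69, median -2.62), 1 of them positive with DESeq2 size factors, and all 3 Zfas1 members were lower (-5.10 to -1.78) under each scaling. The 3 members each of Nop56, Nop58, Rack1 and Rpl17 were called lower as well. Of the 6 Snhg1 members 4 were lower and 1, Gm22680, was higher by 2.10, the latter being -0.06 under the scaling to 7 classes.

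Pancreas of TERM also lay far from fresh pancreas of LAR, in which Gm22680 and Snord123 were already highest and Snord12 lowest among tissues. Gm22680 had a mean of 198688 ± 58206 in the TERM ground controls and 53092 in those of LAR, Snord123 22683 and 5565, and Snord42a 74213 ± 25269 and 28932. Snord80 had 4233 ± 4613 against 30805, Snord12 688 against 7126, and Snord45b 447 against 4287. Gas5 members together took 4.70% ± 1.66 of snoRNA counts in TERM pancreas and Snhg1 members 25.1% ± 5.26. Between the extractions the mice, the time of killing, the freezing and the ages (3 months only in TERM pancreas, 3 and 8 months in LAR) also differed, and these cannot be told apart. In the same libraries snoRNAs were 0.620% to 1.53% of the 7 RNA classes, against a mean of 17.0% in HGC and 18.7% in VGC pancreas of LAR. The mean of the other 11 tissues also held this pancreas, so the calls of other tissues depend on it: with pancreas left out, 441 tests were called, 203 higher and 238 lower.

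Whether spaceflight changed these snoRNAs was asked first in LAR, against HGC. The HGC and VGC libraries of LAR were those whose means chose the members, and FL libraries had no part in that choice. By edgeR no member was called in any of the 12 tissues: 0 of 1200 tests, with 51 (4.25%) at an unadjusted p under 0.05 and 5 called by DESeq2. Over all rows 4.78% of 10028 tests were called, nearly all in BAT (28.6%) and liver (30%), where 83.3% and 97.3% of the called rows had their highest LAR control mean in brain, a property of no member. Log2 differences of members lay between -0.87 and 0.99, with a median size of 0.16 and a median SE of 0.23. The smallest adjusted p was 0.0627, in BAT.

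The abundant members moved little. Over the 12 tissues the FL to HGC log2 difference ran from -0.21 to 0.39 for Snord80, from -0.32 to 0.31 for Snord42a, from -0.22 to 0.46 for Snord22 and from -0.40 to 0.40 for Snord118. For U3 (Rnu3b3) it ran from -0.28 to 0.52 and for Snord13 from -0.46 to 0.41. None of these differences was called. Snord88a in GAT, called by DESeq2 only, had 2364 to 16580 RPM in FL (median 4754, mean 5795 ± 4181) and 1523 to 5110 in HGC (median 3026, mean 3051 ± 1106), 10 mice each. The groups overlapped, and edgeR gave a log2 difference of 0.96 (SE 0.31, adjusted p = 0.0927). Snord123 in liver changed sign with the tool, from -0.63 (DESeq2, called) to 0.99 (edgeR, SE 0.62, adjusted p = 0.293), FL running from 168 to 4237 with a median of 326. The other 3 DESeq2 calls were falls in thymus, of Snord42b, Snord83b and Gm25835. Scaled to the total of 7 classes 74 member tests were called higher, 67 of them in BAT and 7 in GAT.

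In TERM, FL against HGC gave 33 calls of 1200 member tests by edgeR, all higher and all in pancreas (32 distinct snoRNAs), where 8.06% of all 695 rows were called. There 94 of the 100 members had a positive difference, with a median of 1.96 over the members and -0.02 over all rows. The smallest adjusted p, 0.0170, was shared by Gm26247, Snord45b, Snord60, Snord70 and Snord12. Snord12 guides 28S methylation from Zfas1, and Snord70 and Snord60 are guides from Nop58 and Rab26os. Snord45b, from Rabggtb, had 894, 290, 4571 and 202 RPM in FL mice 1 to 4 and 273, 116, 159, 192 and 82.6 in HGC mice 1 to 5, with 1822 and 481 in VGC mice 2 and 3. Snord12 had 4606, 322, 7349 and 180 in FL, 744, 369, 181, 264 and 244 in HGC, and 2300 and 714 in VGC. FL mice 1 and 3 lay above every HGC library for both, while mice 2 and 4 lay within or near the HGC range, so the groups overlapped.

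The log2 differences were 4.64 (SE 1.01) for Snord45b, 4.43 (SE 1.03) for Snord12, 4.40 (SE 0.91) for Gm26247, 3.83 (SE 0.89) for Snord70 and 3.75 (SE 0.88) for Snord60. Next by adjusted p came the Gas5 snoRNAs Gm22357 (3.10) and Snord80 (3.54 in both copies), Snord23 (3.22) and the 18S guide Snord57 (3.45), at edgeR adjusted p = 0.0259 or, for Snord57, 0.0298. Snord80 had 15807, 3525, 24392 and 2505 in FL, 4767, 1026, 2036, 2933 and 991 in HGC, and 14219 and 3656 in VGC. Both VGC libraries lay within the FL range. Gm22680 showed the reverse order with no call, 29604, 214635, 64050 and 202372 in FL against 131002 to 273269 in HGC. Snord123 did likewise, with 3307, 25917, 4603 and 15080 against 19016 to 32346.

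FL mice 1 and 3, which carried the difference, stood apart in other ways. The library of mouse 3 held 27272324 snoRNA counts, 20.4% of the 7 classes, and was in 1 of the 11 pools. That of mouse 1 held 89.5% tRNA counts and lay closest to MAT by its miRNAs. Without FL mouse 3 no member was called, without FL mouse 1 there were 2 calls, and without HGC mouse 2 or 5 there were 0. Leaving out the 11 pools removes FL mouse 3 from pancreas, and leaving out the mismatched libraries removes FL mouse 1. With FL mice 2 and 4 alone there were 0 calls, and Snord12 (-0.18) and Snord57 (-0.14) were lower. With DESeq2 size factors 1 member was called, and DESeq2's own test called 14.

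**Figure D4:**
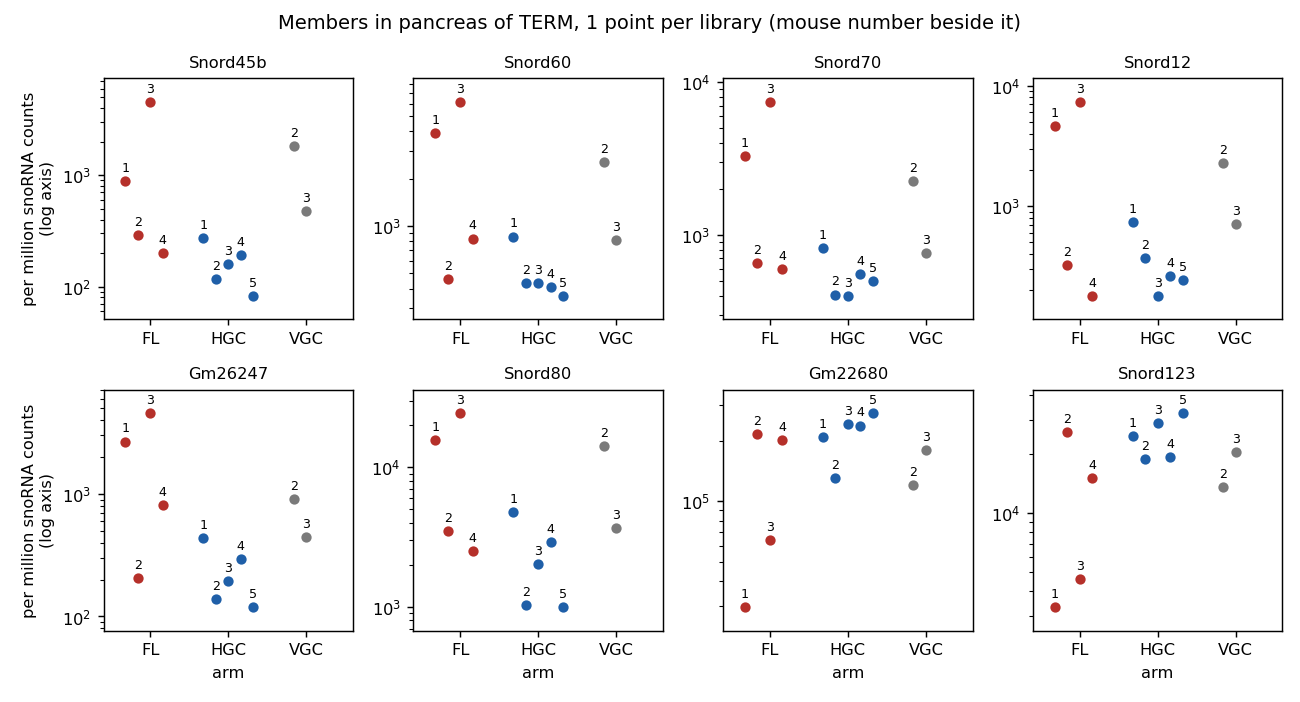
Levels of 8 members in pancreas of TERM (y axes, RPM, log scale) by arm (x axes), 1 point per library with its mouse number. In each panel FL mice 1 and 3 lie on the same side of FL mice 2 and 4, which lie in or near the range of HGC; Gm22680 and Snord123 show the opposite order to the others.

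The difference between the extractions was tested by an interaction term. By edgeR 18 members, all in pancreas (17 distinct, where 2.59% of all rows were called lower), had a smaller FL to HGC difference in LAR than in TERM. In LAR their log2 differences were -0.38 to 0.00. The interaction was -4.56 for Snord45b, -4.50 for Gm26247, -4.23 for Snord12 and -3.34 for Snord80, and it rests on the same 4 FL libraries of TERM, all at 3 months, against both ages in LAR. DESeq2 called 35 lower in pancreas, 1 higher in lung and 1 higher in thymus. Without the 11 pools, and so without FL mouse 3, 11 were called in pancreas.

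Against VGC few members were called, and these were picked after their values were seen. In LAR 3 of 1200 tests were called lower in FL by edgeR (1.73% of all row tests were called lower). Gm22680 in pancreas ran from 19560 to 61582 RPM in FL (mean 39371 ± 13926) and from 32290 to 74590 in VGC (59544 ± 12468), 10 mice each, with a log2 difference of -0.67 (SE 0.24, edgeR adjusted p = 0.0284). It was called in 2 of 10 alternatives, and without the 11 pools it was -0.46 and not called. In liver, the 18S guide Snord100 fell by 0.62 (edgeR adjusted p = 0.0239, 3165 against 4947) and the Gas5 snoRNA Gm22489 by 0.38 (edgeR adjusted p = 0.0474, 12115 against 15986). In TERM 3 of 1200 were called, all lower (1.45% of all row tests were called lower): Snord47 (log2 -0.57, edgeR adjusted p = 0.0335) and Snord49a (log2 -0.78, edgeR adjusted p = 0.0472) in GAT, and Snord88a in liver (log2 -0.69, edgeR adjusted p = 0.0410). By DESeq2 LAR had 6 members higher in BAT and 3 lower in liver. With DESeq2 GAT of TERM had 3 higher and 1 lower, and with DESeq2 size factors 2 and 1. Groups overlapped for all 6. No member was called between HGC and VGC by edgeR or DESeq2, in LAR (43 tests at an unadjusted p under 0.05, 5.64% of all tests called) or in TERM (60 tests, 3.98%). In LAR the means of these same libraries chose the members, so that test is not independent of the choice. The comparisons of arms share the FL or VGC libraries and are not independent of one another.

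Age was compared as 8 against 3 months with arm as a covariate. In LAR edgeR called 0 member tests and 0 of all 10028 row tests (76 member tests at an unadjusted p under 0.05), and DESeq2 called 2, Snord1a (log2 -0.81) and Gm23201 (log2 -0.60) in thymus. In TERM 22 of 1100 member tests were called (3.9% of all tests), in GAT 11 higher (8 distinct, 1.71% of rows called higher), in MAT 10 higher (3.05% of rows called higher) and in heart 1 lower (13.9% called lower). DESeq2 called 59. Direction and tissue turned with the setting: by DESeq2 heart had 18 higher, GAT 16, MAT 13 and spleen 1, while liver had 8 lower, MAT 2 and kidney 1. Heart had 6 higher with DESeq2 size factors and 56 higher with the total of 7 classes. Under this last scaling SCAT had 83 higher, GAT 20 and MAT none. The genes named here were chosen after their values were seen.

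Snord22, the U22 RNA of 18S processing, and Snord88a were called in both GAT and MAT, 2 of 11 and 2 of 10 calls. Snord22 in GAT ran from 13175 to 32123 RPM at 8 months (median 19934, mean 21474 ± 5735) and from 12266 to 29667 at 3 months (median 15782, mean 16848 ± 4301), n = 15 each. The groups overlapped widely and the log2 difference was 0.70 (SE 0.14, edgeR adjusted p = 0.00947). In TERM GAT 96 of the 100 members had a positive difference, with a median of 0.37 over the members and -0.06 over all rows, and in MAT 84 did, with 0.36 and -0.19. Such a shift was not confined to these depots. In BAT of TERM all members called in GAT or MAT had positive differences too, from 0.11 (Gm23301) to 0.53 (Gm23262), none called. Fitted differences use TMM factors, which the means in RPM do not. In MAT the log2 difference of Snord22 was 0.83 (SE 0.23, edgeR adjusted p = 0.0247), with means of 24985 ± 9403 (n = 14) and 18197 ± 4511 (n = 15). Snord88a rose by 1.00 in both, from 4322 ± 2681 to 6474 ± 3798 in GAT (SE 0.20, edgeR adjusted p = 0.00947) and from 4482 ± 1993 to 7166 ± 2479 in MAT (SE 0.30, edgeR adjusted p = 0.0248). In SCAT and BAT of TERM the log2 differences were 0.09 and 0.23 for Snord22 and 0.08 and 0.24 for Snord88a, neither called, and in LAR they were 0.04 and 0.01 in GAT and MAT for Snord22 and 0.20 and -0.67 for Snord88a. Whether these differ from those of TERM GAT and MAT was not tested.

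Snord80 was also higher in GAT at 8 months, 33400 ± 8083 against 26936 ± 7380 (log2 0.66, edgeR adjusted p = 0.0385), as was Snord70 of Nop58 (0.59). In MAT the list held Snhg1 snoRNAs Gm22744 (0.66) and Gm24452 (0.64), Rpl17 snoRNAs Gm23301 (0.75) and Gm26202 (0.63), and Snord100 (0.87). In heart the Ptcd3 snoRNA Gm22486 was lower, 3828 against 5622 (log2 -0.51, edgeR adjusted p = 0.0489). At 3 and 8 months heart held a median snoRNA share of 10.2% and 12.1%, 0.332% and 0.228% of snoRNA counts on the rows dropped for brain, and lymphoid and blood miRNAs of 99290 and 137324 RPM, and 72.5% of its called rows had their highest mean in brain. Other values moved with age in the same libraries. The snoRNA share of GAT was 3.52% ± 1.88 at 3 months and 5.52% ± 1.70 at 8 months, and the medians of lymphoid and blood miRNAs at 3 and 8 months were 36923 and 46660 RPM of miRNA counts in GAT and 47263 and 127589 in MAT. Medians of other sets were lower at 8 months, in GAT those of brown fat (77706 and 61696) and striated muscle (7545 and 3803), and in MAT those of striated muscle (4876 and 2020), liver (1724 and 623), pancreas (1231 and 389) and epithelium (3150 and 1089). In GAT the liver set was also lower (2483 and 1776), and those of pancreas (177 and 255) and epithelium (1341 and 1445) were higher. Single MAT libraries at 3 months reached 390812 for the liver set and 209492 for the striated muscle set. The part of these sets in the result was not tested. In MAT 9 of 15 libraries at 3 months and 13 of 14 at 8 months lay closer to another tissue, and 7 of 15 and 1 of 14 were in the 11 pools. Without the 11 pools 13 MAT members were called higher. Without the mismatched libraries, which leaves 1 MAT library at 8 months, none was, and Snord22 had a log2 difference of 1.36 (edgeR adjusted p = 0.141) and Snord88a of 1.47 (edgeR adjusted p = 0.141). Without the 11 pools no GAT member was called, nor without the mismatched libraries or with DESeq2 size factors. In MAT 84.0% of the called rows, higher or lower, had their highest mean in brain.

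**Figure D5:**
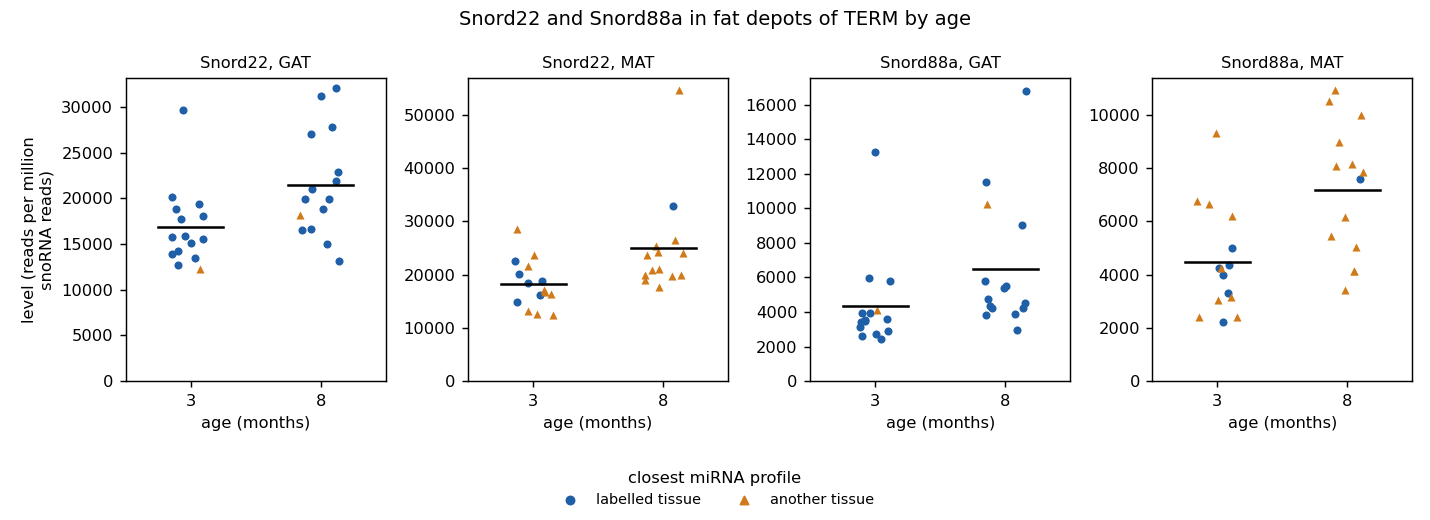
Levels of Snord22 and Snord88a (y axis, RPM) in fat depots of TERM at 3 and 8 months (x axis), 1 point per library, with triangles for libraries closer to another tissue's miRNA profile. The means at 8 months lie above those at 3 months in GAT and MAT and the points overlap in every panel.

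Lists of snoRNA genes by role were matched by name, so rows with only a Gm number are not in them, even where they share a host. All rows of a list were counted, members or not, and copies of a snoRNA count separately. Of the 19 rows of the ribosomal RNA processing list (U3, U8, U13, U14, U17 and U22), 13 were members, 8 of them U3 copies. In TERM tissues 66 of its 228 tests were called higher and 45 lower, against 31.3% of all row tests called in either direction. It had 18 higher in spleen, 12 higher and 4 lower in liver, 12 higher and 1 lower in thymus, 9 higher and 2 lower in kidney, 2 higher and 13 lower in heart, and 8 lower in SCAT. Of all 1038 rows, 670 were called in spleen, 410 in liver, 249 in thymus, 214 in kidney, 267 in heart and 134 in SCAT. None of its rows was called by edgeR for FL against HGC in either extraction. Against VGC in LAR 1 of its rows was called, Snora73a (U17), which is no member. Snora73a was higher in pancreas (log2 0.79, SE 0.30, edgeR adjusted p = 0.0491), where 235 of all rows were called. For age in TERM the list had 4 calls of 209 tests (3.9% over all rows), Snord22 in GAT and MAT and 2 rows of Rnu3a, a U3 gene outside the members, in heart (log2 0.51). Of named snoRNAs in other ribosomal protein genes 9 of 14 rows were members, with 49 higher and 32 lower of 168 tissue tests, 3 calls with flight in TERM pancreas, where 8.06% of all rows were called, and 2 with age. Those of nucleolar and translation factor genes had 10 members of 13 rows, 54 higher and 20 lower of 156, 4 calls with flight and 4 with age. The Gas5 list had 3 members of 4 rows, while 9 member rows lie within Gas5. This list had 18 higher and 6 lower of 48, 3 calls with flight and 2 with age, the latter both rows of Snord80 in GAT. The Rpl13a list had 2 members of 4 rows, with 16 higher and 8 lower and no call with flight or age. Both rows of imprinted loci were outside the members.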

How the data were processed

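Small RNA libraries (MGIEasy kit) were sequenced by the study, and the authors deposited raw whole-number counts of reads per feature and library for snoRNA, tRNA, rRNA, snRNA, piRNA and lncRNA. For miRNA the authors deposited estimated counts, a few of which carry fractions. The build named in the submitters' processing notes is GRCm39. The authors profiled miRNAs with miRMaster, and the step that counted snoRNAs is not given separately in the sources used here. Rows of identical sequence each hold all their reads: 261 snoRNA rows equal another row in every library. Circular RNA and small Cajal body RNA tables were not used here.

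The members and the lists were chosen with earlier results of these data known. Levels are reads per 1e+06 snoRNA reads of the library (RPM), and members were not filtered further. Host genes, positions and sequences came from GENCODE M21 on GRCm38, matched by transcript identifier.

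Tests used edgeR 4.0.16 (quasi-likelihood, limma 3.58.1, R 4.3.3) on the counts as deposited with TMM factors, one fit per tissue and extraction over the 3 arms. Rows with at least 5 counts in at least 10% of the libraries of a group were kept, p-values were adjusted over all rows tested (Benjamini-Hochberg), and an adjusted p under 0.05 was called. All 100 members passed this filter in each comparison. The tissue test used one fit over 12 tissues with the mouse as a block. DESeq2 1.42.0, other scalings, no filter, an age covariate, a replicate block, a rank test on counts scaled to the total of 7 classes and subsets of libraries were alternatives. The named members were the 10 with the highest mean, those at the limit of 100, those of the ribosomal RNA processing list, the 10 called with the smallest adjusted p in FL against HGC and the largest rise and fall per tissue. On simulated counts, 41% of 2-fold and 97% of 4-fold changes were called for FL against HGC in pancreas of TERM (453 rows), and 80% and 100% in liver of LAR (543 rows). These counts had the same fixed dispersion in every row, not that of the libraries, and many rows were changed. In the real pancreas fit Snord60 had an SE of 0.88 and Snord12 one of 1.03. The simulation therefore does not give the power of the real comparisons. Libraries were matched to tissues by 730 miRNAs, and sequencing pools were read from the study's sample sheet by library name. The replicate numbers did not pair animals. Python 3.11.15, pandas 2.3.3 and matplotlib 3.10.9 were used for tables and plots.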

Additional observations from a re-analysis of the deposited data

Results flagged for a closer look

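In groups of 4 to 10 libraries, a single library lay apart from the rest in the members' share of snoRNA counts in 26 of 71 groups. How many groups chance would flag was not tested. In BAT these libraries were HGC mouse 12 of LAR (44.9%), HGC mouse 11 of TERM (66.8%) and VGC mouse 3 of LAR (84.4%). In diaphragm of TERM they were FL mouse 14 (70.3%), HGC mouse 3 (53.0%) and VGC mouse 12 (82.1%). In GAT they were FL mouse 4 of TERM (87.2%), HGC mouse 16 of LAR (84.9%) and VGC mouse 1 of LAR (86.8%), and in heart FL mouse 1 of TERM (77.7%) and VGC mouse 13 of LAR (60.8%). In kidney of TERM they were FL mouse 16 (88.2%) and HGC mouse 11 (80.6%), and in liver of TERM FL mouse 1 (82.0%) and VGC mouse 14 (88.0%). In lung VGC mouse 3 of LAR had 79.8%, in MAT HGC mouse 16 of LAR 85.4% and HGC mouse 14 of TERM 82.6%. In pancreas of LAR FL mouse 3 had 49.4% and HGC mouse 14 had 73.0%. In SCAT VGC mouse 12 of LAR had 82.2%, and in spleen VGC mouse 16 of LAR had 84.4%. In thymus FL mouse 1 of TERM had 76.5%, HGC mouse 16 of LAR 83.1%, VGC mouse 2 of LAR 74.2% and VGC mouse 16 of TERM 87.0%. Rows dropped for their brain level took 38.3% of snoRNA counts in HGC mouse 12 of BAT, 35.3% in FL mouse 3 of pancreas and 31.5% in HGC mouse 3 of diaphragm, and the source of these reads was not tested.

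Among the pancreas members of TERM, 2 of 20 groups held such a library. Snord45b was 4571 RPM in FL mouse 3 against 202 to 894 in the other FL libraries, and Snord60 was 858 in HGC mouse 1 against 359 to 435 in the other HGC libraries.

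The FL to HGC difference in pancreas differed between LAR and TERM by edgeR's interaction term for Gm26247 (-4.50), Snord45b (-4.56), Snord60 (-3.73), Snord70 (-3.79), Snord12 (-4.23), Gm22357 (-3.19), Snord57 (-3.13), Snord23 (-2.93) and both copies of Snord80 (-3.34), with adjusted p from 0.0102 to 0.0274. These rest on 4 FL libraries of TERM, of which mice 1 and 3 stood apart in snoRNA or tRNA content.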

How the results depend on the processing

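Counts of members called depended on the setting in every contrast of arms and ages. The libraries closer to another tissue and the use of FL mice 2 and 4 alone were chosen as alternatives after seeing the data, and no cause below was tested unless stated. For FL against HGC in LAR (0 calls), there were 5 with DESeq2, 1 with DESeq2 size factors, 31 with a Wilcoxon rank test, 74 with the total of 7 classes, 2 without the 11 pools and 4 without libraries of another profile (MAT could then not be fitted). For FL against VGC in LAR (3, all lower), these settings gave 9 (6 of them higher, in BAT), 5, 0, 0, 1 (higher, in spleen) and 0, no filter gave 1 and a replicate block 0. HGC against VGC in LAR (0) had 2 without libraries of another profile.

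For FL against HGC in TERM (33), leaving out 1 library at a time in pancreas gave 0 to 59 (0 without FL mouse 3 or HGC mouse 2 or 5, 1 without HGC mouse 4, 2 without FL mouse 1 or HGC mouse 3, 54 without FL mouse 2, 59 without FL mouse 4). DESeq2 gave 14, DESeq2 size factors 1, the Wilcoxon test, the age covariate, the replicate block, the total of 7 classes and FL mice 2 and 4 alone 0, the set without the pools 1, a fall in GAT, and that without other profiles 11, of which 2 were rises in pancreas, 3 falls in GAT and 6 falls in MAT, where 1 FL library was left. The age covariate left pancreas out, which holds 1 age in TERM. With FL mice 2 and 4 alone Snord12 (-0.18) and Snord57 (-0.14) changed sign. FL against VGC in TERM (3, all lower) had 5 with DESeq2 (3 higher, all in GAT) and with DESeq2 size factors (2 higher, both in GAT), and 0 with the Wilcoxon test, no filter and the total of 7 classes. HGC against VGC in TERM (0) had 1 with no filter, 12 without the pools and 15 without other profiles. The interaction (18, all lower in pancreas) had 37 with DESeq2 (2 higher, outside pancreas), 74 with the total of 7 classes, 39 without other profiles (1 higher, in kidney) and 14 without the pools (11 in pancreas).

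Age in LAR (0) had 2 with DESeq2. Age in TERM (22, of which 1 lower) had 59 with DESeq2 (11 lower, 8 of them in liver), 12 with DESeq2 size factors, 13 with no filter, 159 with the total of 7 classes, 13 without the pools and 3 without other profiles, the last all lower and all in heart. The 580 tissue calls ranged from 441 with pancreas left out to 760 with the total of 7 classes, under which Gm26224 in SCAT turned to -0.15. Of 688 alternatives for 76 named tests, 437 kept direction and call, 248 kept direction only and 3 changed sign. Same-numbered FL and HGC animals did not deviate together throughout (r over 0.1 in 88 of 212 pairs, every pair in 0 of 24 fits, 8 of 10 pairs in lung of LAR). The block on replicate number was therefore not taken to pair animals. It does take up age, since animals of the same number in an extraction had the same age. The block turned no direction among the named tests.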
